A study of Mus musculus with 2 samples.

Results

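The genes studied here, 7 members of the MHC class II antigen presentation pathway, were read in microglia sorted from the prefrontal cortex of mice given vehicle or corticosterone. They were chosen by symbol from the gene list of the deposited matrices, which gave 7 of 32589 features, each listed once: Cd74 (ENSMUSG00000024610), H2-Aa (ENSMUSG00000036594), H2-Ab1 (ENSMUSG00000073421), H2-Eb1 (ENSMUSG00000060586), H2-DMa (ENSMUSG00000037649), H2-DMb1 (ENSMUSG00000079547) and Ciita (ENSMUSG00000022504). The mice were C57BL/6, and corticosterone, the main glucocorticoid of rodents, was given by oral gavage to model depression. Cells were stained for CD45 and CD11b, sorted as CD45-low and CD11b-positive, and made into single-cell RNA libraries with a Singleron GEXSCOPE kit. There was 1 vehicle library and 1 corticosterone library, and the number of animals in each, their sex and age, the dose and the duration are not given in the sources used here. With 1 library per group no test between groups was possible, group and library cannot be told apart, and every interval below is at the 95% level and covers counting error only.

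MHC class II molecules display peptides from taken-up proteins to CD4 T cells. H2-Aa and H2-Ab1 encode the alpha and beta chains of the H2-A heterodimer, and H2-Eb1 encodes the beta chain of H2-E. Cd74 encodes the invariant chain, which blocks the peptide groove and guides new class II molecules to endosomes, and H2-DMa and H2-DMb1 form the H2-DM heterodimer, which exchanges its remnant for peptides. Ciita is the co-activator that switches the pathway on and is recruited by factors bound to the X and Y boxes of class II promoters. Dendritic cells, B cells and activated macrophages carry high class II, while microglia of the resting brain carry little.

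Promoter stretches are shown because the X and Y boxes tie class II genes to Ciita. RefSeq promoter windows (build GRCm38.p6, from 250 bases before to 50 after a gene start) were read for 4 of the 7 members and for 4 of 4 other class II genes (H2-DMb2, H2-Oa, H2-Ob and H2-Eb2), 9 windows in all. Cd74, H2-Ab1 and Ciita were not matched. The X box was searched as CTNGNAAC and the Y box as GATTGG, on both strands. An X box followed by a Y box on the same strand within 40 bases stood in 52 of 32851 windows (0.158%), against 13.2% of windows with an X match and 16.1% with a Y match. Of the class II genes, 4 had such a pair, H2-Aa, H2-Eb1, H2-DMb1 and H2-Ob. Of these, 3 stretches are given in the direction of the gene, with the X match and then the Y match in capitals, at chr17:34287861-34287919 (minus strand) for H2-Aa, chr17:34305761-34305818 (plus strand) for H2-Eb1 and chr17:34238803-34238858 (plus strand) for H2-Ob, none of them overlapping an annotated exon.
H2-Aa: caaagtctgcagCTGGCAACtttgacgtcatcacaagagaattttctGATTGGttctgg
H2-Eb1: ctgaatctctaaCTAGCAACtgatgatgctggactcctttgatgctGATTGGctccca
H2-Ob: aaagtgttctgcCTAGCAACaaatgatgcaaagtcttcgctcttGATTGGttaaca
The X match began 84 bases before the gene start in H2-Aa, 94 in H2-Eb1 and 90 in H2-Ob, with 27, 26 and 24 bases between the boxes. No pair in these letters stood in the windows of H2-DMa, H2-DMb2, H2-Oa and H2-Eb2. A match is a string in a window and was not read as a bound site.

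After filtering, the vehicle library held 10500 cells with 49325067 UMIs (molecular tags that each stand for 1 captured transcript) and the corticosterone library 17883 cells with 85103539 UMIs. The median cell had 3220.5 and 3961 UMIs, with 2.67% and 4.20% of them mitochondrial. Clusters were named from marker genes without any class II gene. The microglia-like class took in 7950 vehicle cells, 75.7% of that library, and 15282 corticosterone cells, 85.5%. Border-associated macrophage-like cells, which sit at the meninges and vessels, numbered 1117 and 804, monocyte-like cells 100 and 127, neutrophil-like 480 and 398, erythroid-like 153 and 80 and endothelial-like 39 and 24, and 661 and 1168 barcodes stayed unnamed. Other classes were thus part of both libraries, with border-associated macrophage-like cells at 10.6% of vehicle and 4.50% of corticosterone cells. Microglia transcripts were found in all of the other classes: the median level of 10 microglia markers in neutrophil-like barcodes was 0.604 of that in microglia-like cells in vehicle and 0.358 in corticosterone. In the vehicle library 7393 of the microglia-like cells were in cluster 1, and in the corticosterone library 9434 were in cluster 0, led by Il1b, and 4810 in cluster 2, so the microglia-like cells of the libraries came from different clusters. The libraries shared 104 barcode strings, 104 and 101 of them among the cells kept. In the GENCODE vM21 annotation of GRCm38, H2-Aa (chr17:34282744-34287823), H2-Ab1 (chr17:34257689-34269419), H2-Eb1 (chr17:34305867-34316674), H2-DMa (chr17:34119541-34139101) and H2-DMb1 (chr17:34153072-34160230) lie together on chromosome 17, Cd74 on chromosome 18 and Ciita on chromosome 16.

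By cluster, Cd74 UMIs were held by different classes in each library. The vehicle library had 12750 Cd74 UMIs, of which monocyte-like cells held 52.8% (95% interval 51.9 to 53.7, exact binomial), border-associated macrophage-like cells 27.8% and microglia-like cells 14.7% (14.1 to 15.3). The corticosterone library had 15999, of which microglia-like cells held 48.5% (47.8 to 49.3), monocyte-like cells 38.2% and border-associated macrophage-like cells 9.46%. The 100 monocyte-like cells of vehicle were 0.952% of its cells. These shares depended on how cells were classed. In another classing each barcode was called microglia from its own marker UMIs rather than its cluster. Such barcodes held 93.5% of Cd74 UMIs in vehicle and 84.3% in corticosterone. They were 94.3% of vehicle and 95.2% of corticosterone cells, so their shares of Cd74 were below their shares of cells.

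The 3 chain genes were held mostly by the monocyte-like cluster in both libraries, and there by barcodes rich in class II that had little of the monocyte marker Ly6c2. Only 50 of its 8416 chain UMIs in vehicle and 50 of 7507 in corticosterone lay in its other barcodes. H2-Aa had 5221 UMIs in vehicle, with 58.7% in monocyte-like, 29.2% in border-associated macrophage-like and 7.70% in microglia-like cells. In corticosterone it had 3280 UMIs, with 82.0%, 5.79% and 7.80% in the same classes. H2-Eb1 was spread much like H2-Aa, with 59.4% of 5204 UMIs in monocyte-like cells in vehicle and 82.8% of 3152 in corticosterone. H2-Ab1 differed in that microglia-like cells held 12.3% of its 4216 UMIs in vehicle and 30.3% of its 3595 in corticosterone.

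The H2-DM genes had another distribution. Microglia-like cells held 66.1% of 11549 H2-DMa UMIs in vehicle and 89.1% of 43353 in corticosterone. For H2-DMb1 they held 64.8% of 5071 and 87.0% of 10011. Of all UMIs, the same cells held 32482251 of 49325067 in vehicle and 71611886 of 85103539 in corticosterone. The H2-DM shares thus lay near the share of all UMIs that these cells held. Monocyte-like cells held 3.02% and 1.44% of H2-DMa UMIs, so most H2-DMa UMIs lay outside the class that held most chain UMIs. This share reflects the small size of the class and not a low level. Monocyte-like cells had H2-DMa at 480 and 548 CPM (UMIs per 1e6) and H2-DMb1 at 289 and 244 CPM. These levels were not below those of microglia-like cells given later. Ciita had 29 UMIs in the whole vehicle library and 37 in the corticosterone library, 15 and 20 of them in monocyte-like cells.

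**Figure D1:**
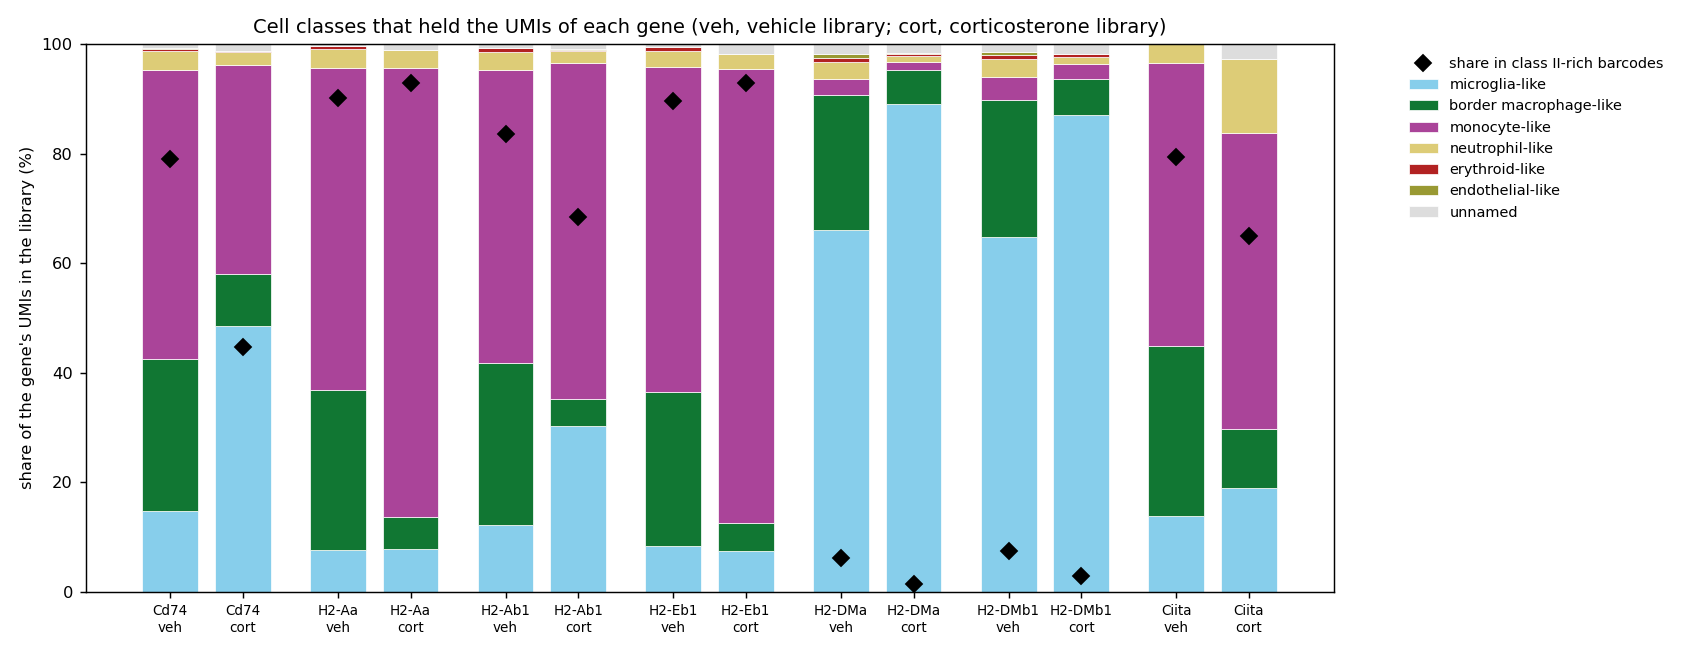
Share of each gene's UMIs (vertical axis, percent) held by each cell class, with a bar for the vehicle and a bar for the corticosterone library per gene; diamonds give the share held by class II-rich barcodes, those with at least 30 UMIs of Cd74 and the 3 chain genes together. Monocyte-like cells held 58.7% and 82.0% of H2-Aa UMIs, while microglia-like cells held 66.1% and 89.1% of H2-DMa UMIs. Microglia-like cells also held most of all UMIs in both libraries.

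Class II UMIs were concentrated in few barcodes. When barcodes were ranked by their Cd74 UMIs, 39 of 10500 held 50% of them in vehicle and 144 of 17883 in corticosterone. For the 3 chain genes summed, 32 barcodes in vehicle and 21 in corticosterone held 50%. For H2-DMa it took 1022 and 3260 barcodes, and for H2-DMb1 792 and 1866. The chains were thus held by few barcodes in either library, and H2-DMa by a broad population.

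**Figure D2:**
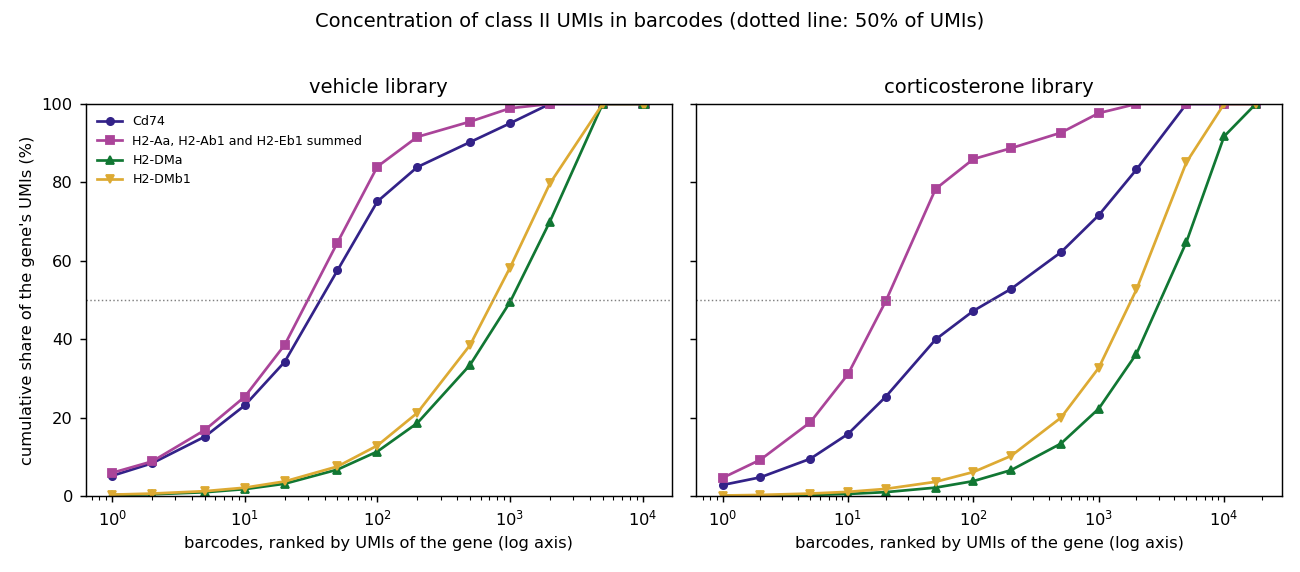
Cumulative share of UMIs (vertical axis, percent) against the number of barcodes ranked by their UMIs of the gene (log axis), for the vehicle library on the left and the corticosterone library on the right. The dotted line at 50% was reached by 39 barcodes for Cd74 and 1022 for H2-DMa in vehicle, and by 144 and 3260 in corticosterone.

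Barcodes with at least 30 UMIs of Cd74, H2-Aa, H2-Ab1 and H2-Eb1 together were called class II-rich, a threshold set after the data had been seen. They numbered 128 in vehicle (1.22% of cells, 1.02 to 1.45) and 77 in corticosterone (0.431%, 0.340 to 0.538). Just outside the threshold, with 25 to 29 UMIs, lay 9 and 6 barcodes, and just inside, with 30 to 34, lay 6 and 5. The rule chose them for these UMIs, of which they carried 79.0% of Cd74 and 88.0% of chain UMIs in vehicle, and 44.7% and 84.2% in corticosterone. Of UMIs the rule did not use, they held 6.12% and 1.43% of H2-DMa, 7.45% and 2.86% of H2-DMb1, and 23 of 29 and 24 of 37 of Ciita. In vehicle 63 of them were monocyte-like, 48 border-associated macrophage-like, 10 microglia-like, 6 neutrophil-like and 1 erythroid-like. In corticosterone the counts were 51, 13, 10, 2 and 0, with 1 unnamed. Microglia-like barcodes were therefore 10 of 128 and 10 of 77 of the class II-rich set, out of 7950 and 15282 microglia-like cells.

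The class II-rich barcodes of the monocyte-like cluster had low levels of most markers for which the cluster was named. The 8 monocyte markers summed to 529 CPM (UMIs scaled to a total of 1e6) in class II-rich against 4909 CPM in other barcodes of vehicle, and to 1024 against 20664 CPM in corticosterone. Ly6c2, a surface protein of classical monocytes, was at 3.77 CPM in the 63 class II-rich barcodes of vehicle and at 1774 CPM in the other 37. In corticosterone Ly6c2 was at 13.4 CPM in 51 class II-rich barcodes and at 5393 CPM in the other 76. Plac8 showed the same split, with 3.77 against 1147 CPM in vehicle and 103 against 3631 CPM in corticosterone, and Fn1, Vcan and F10 had 0 UMIs in the vehicle class II-rich barcodes. Ccr2, the chemokine receptor that monocytes and the cells derived from them carry, did not split, at 492 against 454 CPM and 604 against 689 CPM.

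Cd209a, a lectin of monocyte-derived dendritic cells, was at 281 CPM in class II-rich against 5.10 CPM in other monocyte-like barcodes of vehicle and 288 against 1.62 CPM in corticosterone. At resolution 1.0 Cd209a was also the first leading gene of a border-associated macrophage-like cluster (978 vehicle and 15 corticosterone cells), so it was not particular to dendritic cells. The 13 dendritic cell markers summed to 921 against 627 CPM in vehicle and 852 against 526 CPM in corticosterone within the cluster. Most of that difference came from Cd209a, 1 of the 13. Flt3 was at 9.42 CPM in class II-rich and 0 of 196165 UMIs in other barcodes of vehicle, but at 11.5 against 21.0 CPM in corticosterone, and Xcr1 had 0 UMIs throughout the cluster. Over all class II-rich barcodes the 13 markers summed to 739 CPM in vehicle (644 CPM in all other barcodes) and 764 CPM in corticosterone (559 CPM), with Xcr1 at 0 in vehicle and Xcr1, Clec9a and Itgae at 0 in corticosterone. The 8 B cell markers summed to 500 and 450 CPM against 439 and 400 CPM, and Cd79a, the B cell receptor component, was at 12.6 CPM in the class II-rich barcodes of vehicle, all 18 UMIs in 1 barcode, and at 0 of 862188 UMIs in corticosterone. The B cell markers Cd79a, Ms4a1, Ebf1 and Pax5 were at 0 in the class II-rich barcodes of corticosterone. The 10 microglia markers had UMIs in 128 of 128 and 76 of 77 class II-rich barcodes. The median class II-rich barcode had 5721.5 and 9412 UMIs, above the library medians. Whether some of these barcodes held more than 1 cell was not tested.

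**Figure D3:**
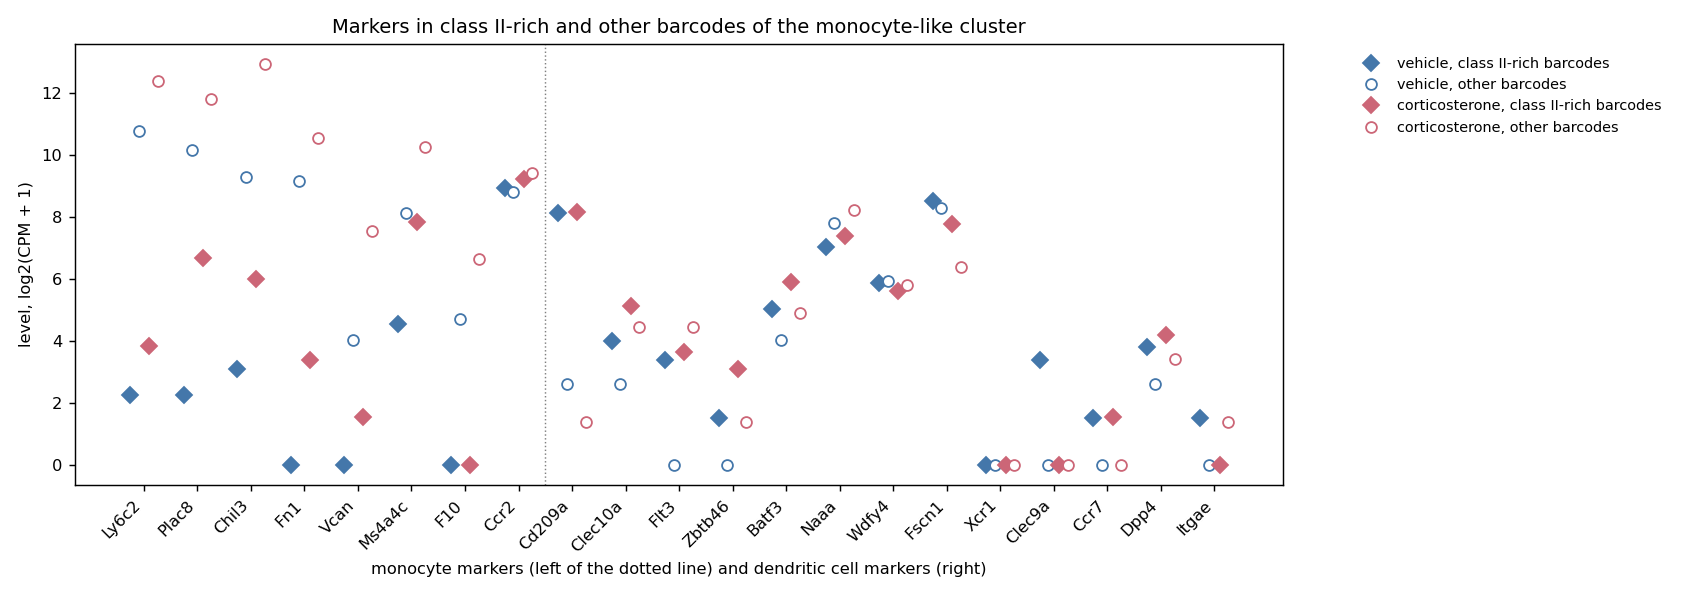
Level, as log2(CPM + 1), of 8 monocyte markers and 13 dendritic cell markers in the class II-rich (diamonds) and other (circles) barcodes of the monocyte-like cluster, in vehicle (blue) and corticosterone (red). Ly6c2 and Plac8 lay far lower in class II-rich barcodes of both libraries, Cd209a far higher, and Ccr2 at about the same level.

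When class II genes were kept among the genes used for clustering, 285 barcodes (195 vehicle and 90 corticosterone) formed a cluster of their own, which took in 87.3% of the class II-rich barcodes. It drew 135 barcodes from the monocyte-like, 76 from the microglia-like and 68 from the border-associated macrophage-like class. After class II genes its leading genes were Clec4b1, Ccr2, Ch25h and Slamf7, and it met no class by the naming rule. The class in which class II UMIs are counted thus depended on whether class II genes took part in the clustering.

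Within the class II-rich barcodes the levels of the 4 genes on which the rule selects lay close in the libraries. Cd74 was at 7057 CPM (6920 to 7196, exact Poisson) in vehicle against 8286 CPM (8095 to 8480) in corticosterone, so that the log2 ratio was 0.23. H2-Aa was at 3294 and 3535 CPM (log2 ratio 0.10), H2-Ab1 at 2466 and 2856 CPM (0.21) and H2-Eb1 at 3265 and 3398 CPM (0.06, -0.01 to 0.13). These values were conditioned on the threshold and are given as a description. H2-DMa, which the rule did not use, was higher in corticosterone in these barcodes. The share of such barcodes was 1.22% in vehicle against 0.431% in corticosterone. Because the threshold acts on both the share and the levels of the genes of the rule, their differences were not compared. For this share the number of animals and the gate of each sort are not known.

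Over all filtered cells, 4 members were lower and 2 higher in corticosterone, and Ciita had too few UMIs for a direction (log2 ratio -0.44, -1.18 to 0.32). Cd74 was at 258 CPM in vehicle against 188 CPM in corticosterone, a log2 ratio of -0.46 (-0.49 to -0.43). H2-Aa was at 106 and 38.5 CPM (-1.46), H2-Ab1 at 85.5 and 42.2 CPM (-1.02) and H2-Eb1 at 106 and 37.0 CPM (-1.51). H2-DMa was at 234 and 509 CPM (1.12) and H2-DMb1 at 103 and 118 CPM (0.19). Past a log2 ratio of 1 were 1 member higher and 3 lower of the 6 with a mean of at least 20 CPM, where 1.66% of 6629 genes were higher and 1.22% lower by as much.

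In microglia-like cells Cd74 had the opposite direction. It was at 57.6 CPM in vehicle (1871 UMIs) against 108 CPM in corticosterone (7765 UMIs), a log2 ratio of 0.91 (0.84 to 0.99). H2-Aa was at 12.4 CPM in vehicle against 3.57 CPM in corticosterone (-1.79, -2.02 to -1.56), and H2-Eb1 at 13.5 and 3.31 CPM (-2.03, -2.26 to -1.80). H2-Ab1, the partner of H2-Aa, was at 15.9 and 15.2 CPM (-0.07, -0.22 to 0.09), an interval that holds 0. So in the same cells the invariant chain was higher in corticosterone, H2-Aa and H2-Eb1 were lower, and H2-Ab1 did not differ beyond counting error. Only 3 of 7 members reached a mean of 20 CPM there, and 1 of them, H2-DMa, was past a log2 ratio of 1, a size that 1.74% of 6599 genes reached upwards and 1.29% downwards. Cd74 reached it only under other alternatives, among them 1.0 with TMM and 1.02 with DESeq2 factors, which shifted all genes of the class by 0.09 and 0.11. The median of those 3 log2 ratios was 0.91, against 0.00 over all 6599 genes. It leaves out H2-Aa, H2-Ab1 and H2-Eb1, which were under 20 CPM, so it does not describe the 7 members as a set.

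In border-associated macrophage-like cells Cd74 was at 304 CPM in vehicle against 218 CPM in corticosterone (-0.48, -0.56 to -0.39), and the 3 chains were past a log2 ratio of -1, with H2-Aa at 130 and 27.4 CPM (-2.25), H2-Ab1 at 106 and 25.4 CPM (-2.07) and H2-Eb1 at 125 and 23.1 CPM (-2.44). In this class 1.14% of 6576 genes were lower by that size and 2.27% higher. At the higher clustering resolution of 1.0 its cells fell into different clusters in each library, with 978 vehicle and 15 corticosterone cells in 1 cluster against 117 and 411, and 23 and 353, in a pair of others. The class held 48 class II-rich barcodes of 1117 in vehicle and 13 of 804 in corticosterone. Without them Cd74 was at 67.9 and 150 CPM, so that its log2 ratio turned to 1.14 (1.0 to 1.28). H2-Aa stayed lower at 11.6 and 6.54 CPM (-0.83, -1.36 to -0.32). The class II-rich barcodes were selected on Cd74 and chain UMIs, so leaving them out moves these ratios by construction.

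In monocyte-like cells Cd74 was at 9261 CPM in vehicle against 5360 CPM in corticosterone (-0.79, -0.84 to -0.74), and the chains summed to 11574 and 6576 CPM (-0.82). None of the 6 members with a mean of at least 20 CPM was past a log2 ratio of 1, where 5.61% of 6486 genes were higher and 4.53% lower by as much. Class II-rich barcodes were 63 of the 100 cells in vehicle and 51 of the 127 in corticosterone, and how far this share set the difference was not tested. In the other barcodes of the cluster Cd74 was at 321 CPM (247 to 411) and 246 CPM (208 to 288), intervals that overlap. The chains summed there stayed lower in corticosterone, at 255 and 80.9 CPM (-1.66, -2.25 to -1.06), from 50 UMIs in each library. H2-DMa was higher there, at 189 and 324 CPM (0.78, 0.27 to 1.33).

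The direction of Cd74 thus turned with the cells taken. Without class II-rich barcodes, all cells together gave 55.9 CPM in vehicle against 105 CPM in corticosterone, a log2 ratio of 0.91, against -0.46 with them. Microglia-like cells gave 1.04 without them and 0.91 with them. The class II-rich barcodes were selected on Cd74 and chain UMIs. They held 79.0% of Cd74 UMIs in vehicle against 44.7% in corticosterone, so leaving them out raises the ratio over all cells by construction. A rule applied to each cell, which calls a barcode microglia when its microglia marker UMIs outnumber those of all other classes, took in 9904 and 17017 cells and kept 117 and 57 class II-rich barcodes. Under it Cd74 was at 253 CPM in vehicle against 166 CPM in corticosterone, a log2 ratio of -0.61. H2-Aa and H2-Eb1 were lower in corticosterone in all these sets apart from the class II-rich barcodes, and H2-DMa was higher in each.

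**Figure D4:**
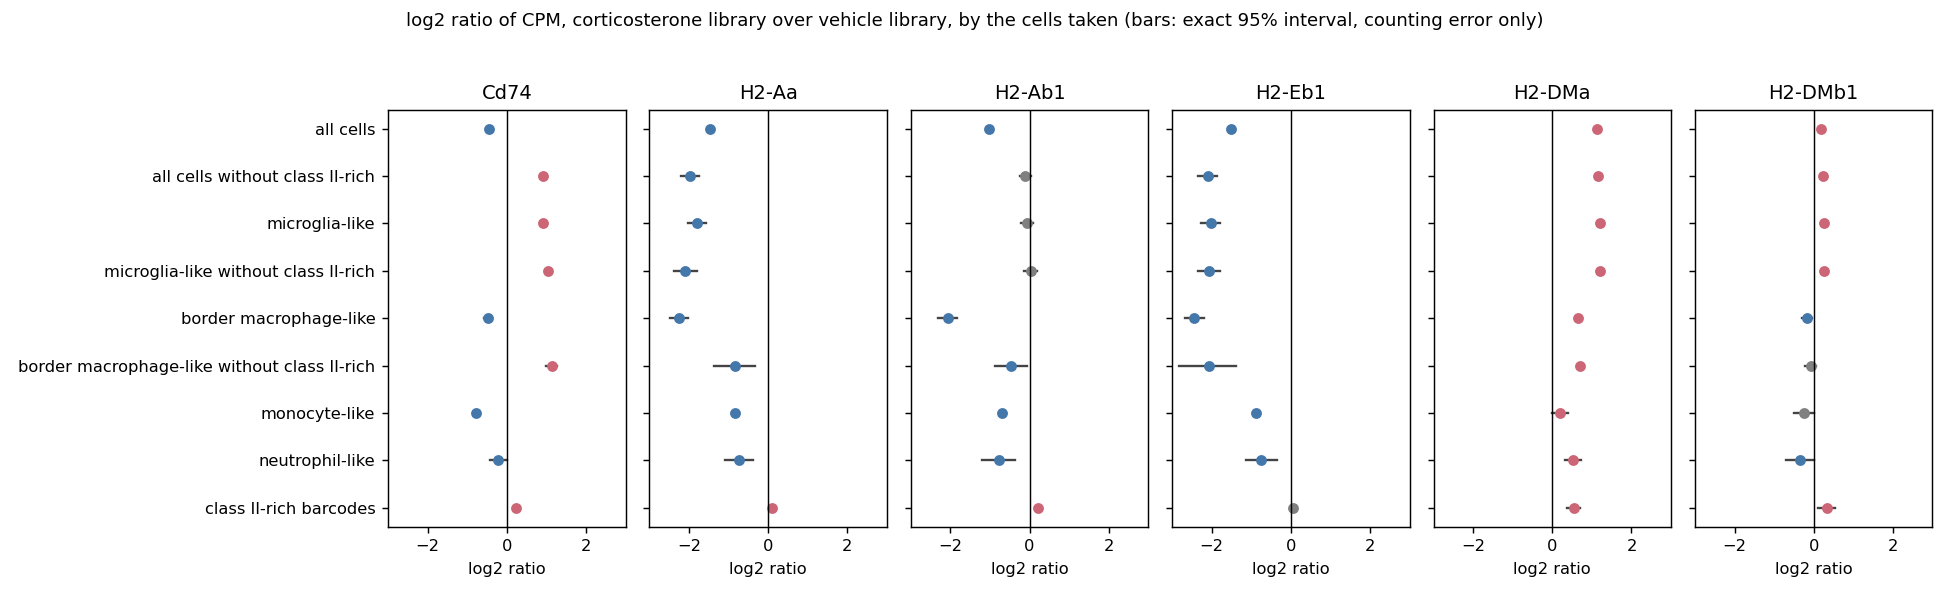
log2 ratio of CPM, corticosterone over vehicle (horizontal axis), of 6 members in 9 sets of cells (rows); bars are exact 95% intervals for counting error, and red, blue and grey points are above 0, below 0 and overlapping 0. Cd74 lay at -0.46 over all cells and at 0.91 in microglia-like cells. It lay at 0.91 too in all cells without class II-rich barcodes, which were selected on Cd74 and chain UMIs. H2-DMa lay above 0 in each row.

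Outside the class II-rich barcodes, H2-Aa and H2-Eb1 in microglia-like cells were no higher than in barcodes of cell types that should lack class II. In vehicle H2-Aa was at 9.46 CPM (8.43 to 10.6) in microglia-like, 15.7 CPM (11.1 to 21.7) in neutrophil-like and 17.3 CPM (7.45 to 34.0) in erythroid-like barcodes. In corticosterone it was at 2.22 CPM (1.89 to 2.60) in microglia-like and 2.17 CPM (0.704 to 5.06) in neutrophil-like barcodes, with 0 of 400828 UMIs in erythroid-like barcodes, which allows up to 7.48 CPM (3 counts). H2-Eb1 gave 9.71 and 15.7 CPM in microglia-like and neutrophil-like barcodes of vehicle and 2.31 and 3.47 CPM in corticosterone. The compared barcodes also held microglia markers, so they are not a background free of microglia RNA. Relative to microglia-like cells, the marker level was 0.604 (vehicle) and 0.358 (corticosterone) in neutrophil-like barcodes. In erythroid-like barcodes it was 0.796 and 0.830. The levels of H2-Aa and H2-Eb1 were not read as expression by microglia-like cells in general, and the part of free RNA in them was not tested.

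Cd74 summed over vehicle microglia-like cells was within the intervals of neutrophil-like and erythroid-like barcodes, and in corticosterone it was above them. The microglia marker level of neutrophil-like barcodes itself differed, at 0.604 in vehicle and 0.358 in corticosterone, and its part in this was not tested. Without class II-rich barcodes, vehicle had 50.2 CPM (47.8 to 52.7) in microglia-like, 45.5 CPM (37.3 to 55.0) in neutrophil-like and 64.7 CPM (43.7 to 92.4) in erythroid-like barcodes. Corticosterone had 103 CPM (101 to 106) in microglia-like, 51.2 CPM (42.4 to 61.3) in neutrophil-like and 67.4 CPM (44.4 to 98.0) in erythroid-like barcodes. Thinned to 1000 UMIs per cell, 4.73% of vehicle microglia-like cells (348 of 7355) and 5.03% of neutrophil-like cells (19 of 378) had a Cd74 UMI. In corticosterone the shares were 8.52% (1294 of 15192) and 3.84% (15 of 391). Thinning left out 595 and 90 microglia-like and 102 and 7 neutrophil-like cells, and unthinned the microglia-like shares were 13.4% and 26.5%, at median depths of 3191.5 and 4004 UMIs against 2658.5 and 3731 UMIs in neutrophil-like cells. H2-Ab1 in microglia-like cells, at 13.6 and 13.9 CPM, was at the neutrophil-like level in vehicle (13.2 CPM, 8.96 to 18.7) and above it in corticosterone (6.07 CPM, 3.32 to 10.2), but there within the interval of erythroid-like barcodes (17.5 CPM, 7.02 to 36.0).

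In class II-rich barcodes there were 2.14 Cd74 UMIs per H2-Aa UMI in vehicle (2.07 to 2.22) and 2.34 in corticosterone (2.25 to 2.45). In the other microglia-like barcodes there were 5.30 (4.69 to 6.01) and 46.5 (39.7 to 54.7). H2-Ab1 stood at 0.749 and 0.808 UMIs per H2-Aa UMI in class II-rich and at 1.44 and 6.26 in the other microglia-like barcodes. H2-Eb1 stayed near 1 UMI per H2-Aa UMI in all 4, from 0.961 to 1.04. Neutrophil-like barcodes without the class II-rich ones had 2.89 Cd74 UMIs per H2-Aa UMI in vehicle (1.97 to 4.32), an interval that holds the class II-rich value and lies below the microglia-like one. In corticosterone they had 23.6 (9.83 to 74.0), from 5 H2-Aa UMIs.

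Among microglia-like barcodes, chain UMIs were not spread evenly, and barcodes with more Cd74 UMIs had them more often. Where a microglia-like barcode had 3 to 9 Cd74 UMIs, 43.8% of 112 vehicle barcodes had at least 1 chain UMI (34.4 to 53.4) and 14.5% of 667 corticosterone barcodes did (12 to 17.4). With 0 Cd74 UMIs the shares were 7.22% and 5.45%. At 10 or more Cd74 UMIs they were 13 of 15 and 22 of 45 barcodes. Deeper barcodes have more of every UMI, and the median depth of the 3 to 9 bin was 4015 and 5512 UMIs.

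**Figure D5:**
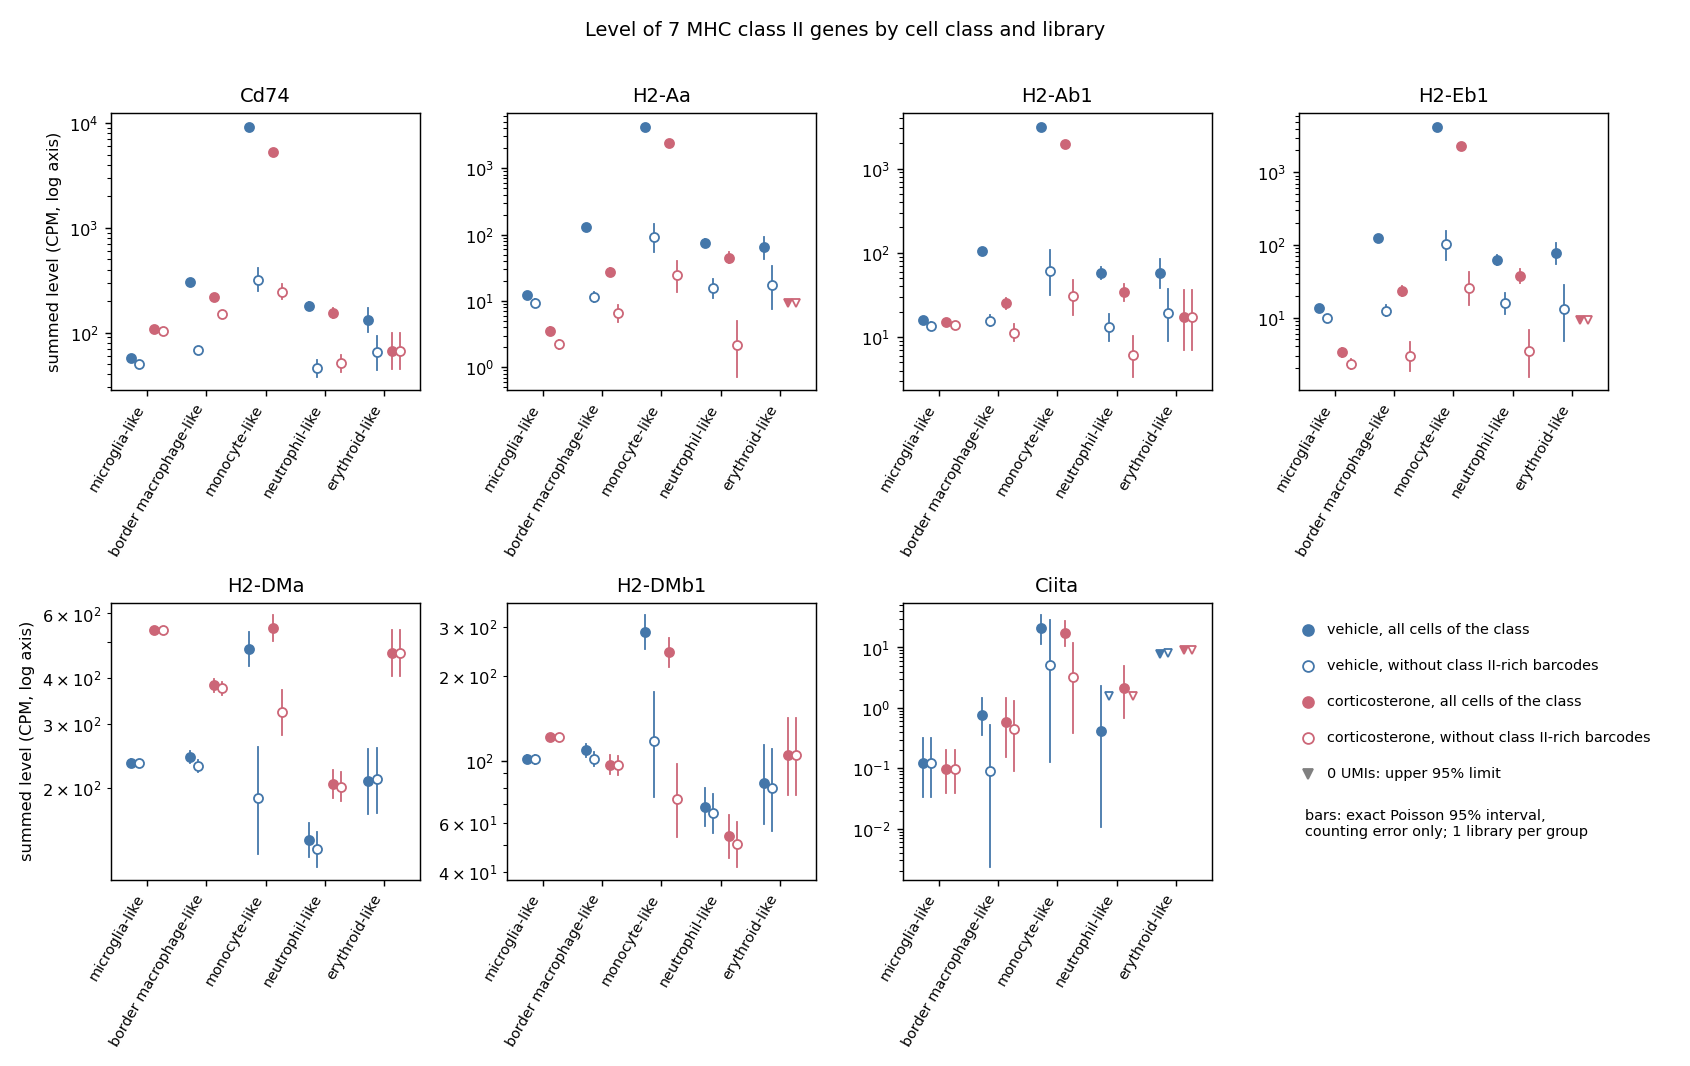
Summed level (CPM, log axis, ranges differ between panels) of the 7 members in 5 cell classes, for the vehicle (blue) and corticosterone (red) libraries, with all cells of the class (filled) and without class II-rich barcodes (open); bars are exact Poisson 95% intervals and triangles upper limits for 0 UMIs. Leaving out class II-rich barcodes lowered Cd74 and the chains in monocyte-like cells, from 9261 to 321 CPM for Cd74 in vehicle, and left H2-DMa in microglia-like cells at 234 and 540 CPM.

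The clusters inside the microglia-like class did not all have the same direction for Cd74, and those of vehicle differed among themselves. Without class II-rich barcodes, cluster 1, which held most vehicle cells, had Cd74 at 46.4 CPM in 7389 vehicle against 75.8 CPM in 260 corticosterone cells. Cluster 0, which held most corticosterone cells, had it at 171 CPM (143 to 203) in 217 vehicle against 102 CPM (99.3 to 105) in 9434 corticosterone cells, and cluster 2 at 76.5 CPM (54.1 to 105) in 277 and 89.7 CPM (85.1 to 94.4) in 4809. Cluster 5, led by interferon-induced genes such as Ifit2, Ifit3 and Cxcl10, had the highest level in corticosterone, 177 CPM (164 to 190) in 767 cells, against 135 CPM (81.0 to 210) in 40 vehicle cells. The vehicle cells of clusters 0 and 5 were thus above the neutrophil-like level of 45.5 CPM (37.3 to 55.0), although the sum over vehicle microglia-like cells was near it. H2-DMa was higher in corticosterone in each of these clusters, from 269 to 493 CPM in cluster 5, 262 to 534 CPM in cluster 0, 304 to 574 CPM in cluster 2 and 233 to 458 CPM in cluster 1. Clusters 0, 1, 2 and 5 were each filled mostly by 1 library, so cluster and library are hard to tell apart here.

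H2-DMa, the alpha chain of H2-DM, had the highest log2 ratio in microglia-like cells of the 3 members that reached a mean of 20 CPM there. It was at 235 CPM in vehicle (7632 UMIs) against 540 CPM in corticosterone (38642 UMIs), a log2 ratio of 1.20 (1.16 to 1.24) that did not rest on class II-rich barcodes (1.20 without them). After thinning, 19.2% of vehicle and 40.1% of corticosterone microglia-like cells had an H2-DMa UMI, against 9.52% and 9.97% of neutrophil-like cells. In erythroid-like barcodes the thinned shares were 16.9% (10.8 to 24.7) and 43.6% (32.4 to 55.3), intervals that hold the microglia-like values. Border-associated macrophage-like cells had 243 and 382 CPM (0.65) and monocyte-like cells 480 and 548 CPM (0.19, 0.00 to 0.39). Erythroid-like barcodes, whose microglia marker level was 0.796 and 0.830 of that in microglia-like cells, had 210 and 469 CPM, so H2-DMa was not set apart from that class. The part of free microglia RNA in this was not tested. The H2-DMa locus overlaps Brd2 on the other strand, and the strand rule of the counting is not given in the sources used here, so reads of H2-DMa and Brd2 cannot be told apart with certainty. Brd2 itself was lower in corticosterone, at 328 and 239 CPM in microglia-like cells (-0.45, -0.49 to -0.42).

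H2-DMb1, the beta chain, differed far less than its partner. It was at 101 CPM in vehicle against 122 CPM in corticosterone microglia-like cells, a log2 ratio of 0.26 (0.21 to 0.32), and at 109 and 96.8 CPM (-0.17, -0.30 to -0.03) in border-associated macrophage-like cells. After thinning 8.76% and 11.0% of microglia-like cells had a UMI, against 4.76% and 2.56% of neutrophil-like cells. In erythroid-like barcodes the thinned shares were 8.06% (3.94 to 14.3) in vehicle and 3.85% (0.80 to 10.8) in corticosterone. Only the vehicle interval holds the microglia-like value. Summed over erythroid-like barcodes, H2-DMb1 was at 83.4 CPM (59.3 to 114) and 105 CPM (75.5 to 142), intervals that hold the microglia-like levels. H2-DMa UMIs outnumbered H2-DMb1 UMIs by 2.32 to 1 in vehicle (2.23 to 2.42) and 4.44 to 1 in corticosterone (4.34 to 4.55) in microglia-like cells outside the class II-rich set, and by 1.87 and 2.16 to 1 within it. The proportion was also higher in corticosterone in the other classes outside the class II-rich set. It was 2.10 in vehicle against 4.02 in corticosterone in neutrophil-like, 2.65 against 4.48 in erythroid-like, 2.26 against 3.90 in border-associated macrophage-like, 1.61 against 4.44 in monocyte-like and 2.69 against 4.11 in unnamed barcodes.

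Ciita was too sparse for a comparison of libraries. Microglia-like cells had 4 UMIs of 32482251 in vehicle and 7 of 71611886 in corticosterone, 0.123 CPM (0.034 to 0.315) and 0.098 CPM (0.039 to 0.201). Class II-rich barcodes had 16.1 CPM (10.2 to 24.2) and 27.8 CPM (17.8 to 41.4), and 20 of 128 and 15 of 77 of them had a UMI. Monocyte-like cells had 20.6 and 17.5 CPM, and erythroid-like and endothelial-like barcodes had 0 UMIs. Most Ciita UMIs were thus held by class II-rich barcodes, as most chain UMIs were. Most UMIs of H2-DMa and H2-DMb1 were held by microglia-like cells, which also held most of all UMIs. The Ciita locus overlaps Dexi on the other strand.

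Of the other class II genes, H2-Oa and H2-Ob encode the H2-O heterodimer, an inhibitor of H2-DM. H2-Oa was at 57.9 CPM in vehicle against 93.3 CPM in corticosterone microglia-like cells (0.69, 0.61 to 0.76), and H2-Ob at 33.9 and 28.8 CPM (-0.23, -0.34 to -0.13). H2-DMb2, a second H2-DM beta chain, was under 20 CPM, at 5.51 and 13.5 CPM (1.29, 1.06 to 1.53), and H2-Eb2 had 0 UMIs in microglia-like cells of either library. H2-Oa was held 70.6% and 90.6% by microglia-like cells, as H2-DMa was. These cells also held most of all UMIs. H2-Ea was not in the gene list of the deposited matrices and so could not be analysed here. Reads of H2-DMb1 and its neighbour H2-DMb2 could be split by the counting, because the genes are alike in sequence, and those of H2-Oa overlap BC051537 on the other strand.

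Of 7 genes for transcription factors that bind class II promoters (Rfx5, Rfxap, Rfxank, Nfya, Nfyb, Nfyc and Creb1), 6 reached 20 CPM in microglia-like cells, 0 were past a log2 ratio of 1 in either direction, where 1.74% of all genes were past it upwards and 1.29% downwards, and the median log2 ratio was 0.09, against 0.00 for all 6599 genes. Nfyc, an NF-Y subunit, was highest at 34.2 and 45.2 CPM (0.40), and Nfya lowest at 72.5 and 61.1 CPM (-0.25).

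Of 7 genes that prepare peptides in endosomes, 1 was past a log2 ratio of 1 upwards and 0 downwards in microglia-like cells, where 1.74% of all genes were past it upwards and 1.29% downwards, and the median was 0.17. In monocyte-like cells 4 of the 7 log2 ratios were below 0, with a median of -0.24. Ifi30, the thiol reductase that opens disulfide bonds of antigens, was at 116 and 312 CPM in microglia-like cells (1.43, 1.38 to 1.48). Ctss, the protease that trims the invariant chain, was lowest at 6789 and 6844 CPM (0.01). Of 8 genes of costimulation and class II turnover, 5 reached 20 CPM in microglia-like cells and 0 were past that size, a count that says little beside the 1.74% and 1.29% of all genes, and the median was 0.08. Icosl, a ligand for T cell costimulation, was highest at 70.3 and 120 CPM (0.77), and March8, a ubiquitin ligase that removes class II from the surface, lowest at 23.1 and 20.1 CPM (-0.20). Cd40 was scarce, with 22 and 185 UMIs.

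Across 19 sums of cluster by library with at least 50 cells, the gene most like the mean of H2-Aa, H2-Ab1 and H2-Eb1 was Cd74, with a Pearson correlation of 0.917 over log2(CPM + 1) values. Crip1 (0.750), Tmsb10 (0.746), Ramp1 (0.745), Sec61g (0.720), Cryzl1 (0.715), Ms4a6c (0.698), Idh1 (0.680), Smpdl3a (0.680) and Atp5md (0.669) came next. Much of this rested on the pair of monocyte-like sums: over the other 17, Cd74 stayed at 0.759 and Crip1 came to 0.268 and Tmsb10 to 0.125. H2-DMb1 was at 0.355 and H2-DMa at -0.08, ranks 360 and 2735 of 6400 genes. The sums share 2 libraries and their free RNA, so these correlations are a description.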

How the data were processed

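The authors deposited unnormalised counts, whole UMIs for each gene in each barcode, for 1 vehicle and 1 corticosterone library, with totals that differ from cell to cell. Reads were demultiplexed with bcl2fastq 2.19 and the build was GRCm38, per the submitters' processing notes. Aligner, counter, annotation and cell calling are not given in the sources used here. File names carry the words wild type and depression, and each file was given its group through its sample record. Cells with at least 500 UMIs, 300 genes and at most 20% mitochondrial UMIs were kept (55 and 230 barcodes removed). Scrublet marked 0 and 0 cells, was taken not to have worked, and no doublet was removed. Cells were clustered with scanpy 1.11.5 and leidenalg 0.10.2 (2000 variable genes without class II genes, 30 components, 15 neighbours, resolution 0.5). A cluster was called X-like with at least 3 markers at 2 times their level elsewhere. It was called microglia-like with microglia markers at 0.5 or more of the level in all cells. A name was dropped where the leading genes held more markers of another class. It was also dropped where median UMIs were low and no marker of the class led. The unnamed cluster had a microglia marker level of 0.703 and median UMIs at 0.324 of the library median.

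UMIs were summed per library and class, scaled to CPM, and compared as log2 ratios with exact Poisson or conditional binomial intervals (scipy 1.17.1). Shares have exact binomial (Clopper-Pearson) intervals. Past means a log2 ratio of at least 1 in size at a mean of at least 20 CPM. The calculation was tested on simulated data. edgeR 4.0.16 (TMM) and DESeq2 1.42.0 size factors served as other scalings only. Named genes are the 7 members, the highest and lowest gene of each pathway list, and the 10 genes most like the chains. The results of 1 further list are not reported here. Genes named beside these, among them H2-DMb2, Cd40 and the genes of the marker lists, were chosen after their values were seen. Members and lists were chosen with earlier results of these data known. Alternatives were the clustering resolution, class II genes in clustering, a rule per cell, all cells, marker-free cells, the highest 1% of cells, thinning, filters, doublet scores, scaling and class shares. Leaving out class II-rich barcodes or shared barcodes, and other thresholds for that set, were added after seeing the data.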

Additional observations from a re-analysis of the deposited data

Results flagged for a closer look

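The log2 ratio of Cd74, corticosterone over vehicle, was -0.79 in monocyte-like cells and 0.91 in microglia-like cells, opposite directions in the same pair of libraries. With 1 library per group the difference between these values was not tested. Class II-rich barcodes were 63 of 100 and 51 of 127 monocyte-like cells and 10 of 7950 and 10 of 15282 microglia-like cells, and their part in it was not tested.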

How the results depend on the processing

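No paired analysis was possible because there was 1 library per group. The log2 ratio of Cd74 in microglia-like cells kept its direction in 13 of 15 alternatives. It turned to -0.61 under the rule per cell and -0.46 with all cells. It was 0.79 and 0.99 at resolutions 0.3 and 1.0, 1.25 with class II genes in the clustering, 0.64 in cells with 0 UMIs of macrophage, monocyte and dendritic cell markers, 1.04 without the 1% of cells richest in class II, 0.72 thinned, 1.01 with stricter filters, 1.0 and 1.02 with TMM and DESeq2 factors and 1.04 without class II-rich barcodes. The chains summed were at -0.92 and kept their direction in all 15, at -1.07 (resolution 0.3), -0.33 (class II genes in the clustering), -1.67 (rule per cell), -1.33 (all cells), -1.05 (marker-free cells), -0.81 (without the richest 1%), -1.24 (thinned), -0.74 (stricter filters) and -0.81 (DESeq2 factors). H2-Ab1 kept its sign in 8 of 15 (-1.26 to 0.31), H2-Aa, H2-Eb1, H2-DMa and H2-DMb1 in 15 of 15. The DESeq2 factors moved all log2 ratios of microglia-like cells by 0.11. Over all cells Cd74 was -0.40 and -0.39 with TMM and DESeq2 factors, and -0.28 and -0.13 with the class shares of the vehicle or the corticosterone library given to both. Its share in microglia-like cells of vehicle was 16.5% and 13.4% at resolutions 0.3 and 1.0. With class II genes in the clustering it was 11.6%, and under the rule per cell 93.5%. In corticosterone it was 47.6% at resolution 1.0 and 84.3% under that rule. The rule per cell took in 94.3% of vehicle and 95.2% of corticosterone cells. With no filter on low counts 894 genes were past the size upwards and 2625 downwards, against 115 and 85. Apart from the exclusions by construction, the causes were not tested. Of the other alternatives, 16 for these results and 77 for single genes, shares and lists stayed within counting error or within 1.5 times the count, and 51 of the latter moved without a change of sign of a called value.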

Other observations

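Erythroid-like barcodes of corticosterone held H2-DMa at 469 CPM (404 to 541) and 0 of 400828 UMIs of H2-Aa and of H2-Eb1, while those of vehicle held H2-DMa at 210 CPM (170 to 255) and 30 and 36 UMIs of H2-Aa and H2-Eb1. Without the 1 class II-rich barcode of that class in vehicle, 8 H2-Aa and 6 H2-Eb1 UMIs remained.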
